A study of Rattus norvegicus with 36 samples.

Results

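The response of H9C2 cells to hypoxia was measured in cells that had all received the miR-125b mimic. H9C2 is a rat cardiac myoblast line that divides as undifferentiated muscle precursor cells. The comparison was made between 3 libraries labelled Hypoxia miR-125b and 3 labelled Normoxia miR-125b, which are 6 of the 36 libraries of the series, and they were chosen by these labels alone. The series holds 12 groups of 3 libraries, given by 6 transfections and 2 oxygen states. The transfections were a mimic control (MC), miR-125b, and 4 isomiRs, of which Plus A is longer and Trim A, Trim AG and Trim AGU are shorter at the 3′ end. Cells of both groups received the miR-125b mimic at 25 nmol/L by lipid transfection over 24 h. The hypoxic cells were then held for 24 h below 0.2% oxygen in serum-free, low-glucose medium, while the normoxic cells were given fresh medium under the usual culture conditions, which the methods describe with 10% fetal bovine serum. Oxygen, serum and glucose therefore changed together between the groups, and their parts in any difference cannot be told apart. Counts for the libraries of the normoxic mimic control did not enter this comparison and were not analysed here, and no value below says whether a response depends on the miR-125b mimic.

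Cells that lack oxygen stop hydroxylating the alpha subunits of the hypoxia-inducible factors (HIF), which then escape degradation by the von Hippel-Lindau protein and switch on genes of glucose uptake, glycolysis, blood vessel growth and mitophagy. Serum carries growth factors that keep myoblasts in the cell cycle and hold back differentiation, and lipoproteins that feed back on sterol synthesis. miR-125b is a conserved microRNA abundant in heart and muscle, where it is known for repressing pro-apoptotic transcripts. MicroRNAs recognise targets mainly through the seed, bases 2 to 8 from the 5′ end.

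The mimic that both groups received has the mature sequence of rno-miR-125b-5p, 22 bases that RefSeq places at chr11:29732588-29732609 on the plus strand of GRCr8. It is shown with the 4 isomiRs that serve as comparisons further on, with the seed in capitals and all in 5′ to 3′ direction. The isomiR sequences were derived from this sequence and from the bases in their names.
miR-125b: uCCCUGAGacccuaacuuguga
Plus A: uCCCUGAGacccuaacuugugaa
Trim A: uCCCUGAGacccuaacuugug
Trim AG: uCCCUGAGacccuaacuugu
Trim AGU: uCCCUGAGacccuaacuug
The seed is the same in all 5, and they differ by 1 to 3 bases at the 3′ end, with lengths of 19 to 23 bases.

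Total counts were 29091237 to 30994348 in the hypoxia libraries and 28737057 to 29196100 in the normoxia libraries, and 18738 to 19158 genes were detected in each. The 3 hypoxia libraries were close to each other, with root mean square differences of 0.237 to 0.238 in log2 CPM (CPM is the count scaled to library size by TMM, and 1 CPM was added), against 0.525 to 0.543 between the groups. Normoxia replicate 1 stood apart from replicates 2 and 3, at 0.293 and 0.288 against 0.254 between the other two. *Cav1*, the main caveolin of the plasma membrane, read 106 CPM in that library and 290 and 270 CPM in the other normoxia libraries, beside 234, 239 and 234 CPM in hypoxia. In normoxia under Plus A *Cav1* read 274 CPM in replicate 1 and 102 and 102 CPM in replicates 2 and 3. The labelled cell type was checked against markers. The 9 myoblast markers summed to 3858 to 4109 CPM in normoxia and 3955 to 3996 CPM in hypoxia, most of it *Vim*, with *Myf5* at 0 in all 6 libraries. The summed markers of endothelial, leukocyte, epithelial and neural cells stayed at or below 1.38 CPM in every library, and those of cardiomyocytes were 4.97 to 6.24 CPM in hypoxia and 7.44 to 8.21 CPM in normoxia. The share of counts on ribosomal RNA genes was 0.0131% to 0.0168% in hypoxia and 0.0026% to 0.00367% in normoxia, and that on ribosomal protein genes 3.67% to 3.89% and 2.98% to 3.28%. The part of these shares in the results was not tested. In such bulk RNA, fewer cells of a kind and less RNA per cell cannot be told apart.

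A large share of the transcriptome differed between the hypoxia and normoxia groups. Calls required at least 1.5-fold and, in edgeR's quasi-likelihood test with Benjamini-Hochberg adjustment, an adjusted p below 0.05. Of 15028 genes tested, 1403 (9.34%) were called higher and 1732 (11.5%) lower in hypoxia. The 3 hypoxia libraries lay wholly above the 3 normoxia libraries for 29.7% of the genes tested and wholly below for 30.2%, 59.9% together. These shares are the background for each count given for a gene list below. The median log2 fold change of all genes tested was 0.014. With the libraries scaled by their totals alone, 1799 genes were called higher and 1449 lower. Without Normoxia replicate 1 there were 1376 genes higher, of which 1213 were among the 1403, and 1738 lower, of which 1584 were among the 1732. The call on 28 of the 247 called genes named or listed here was lost when 1 of the 6 libraries was left out, 12 of them without Normoxia replicate 1. These 28 were *Psmb8*, *Pim1*, *Bcl2*, *Olfml2b*, *Cdk2*, *Lif*, *Fos*, *Phlda3*, *Il6*, *Eno2*, *Acly*, *Map1lc3b*, *Tp53inp2*, *Srf*, *Tnnc1*, *Tnni2*, *Pcna*, *Dusp6*, *Cdh15*, *Myog*, *Gbp2*, *Ndufa4l2*, *Casp12*, *Tap2*, *E2f2*, *Mvk*, *Mrpl53* and *Ier5*.

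**Figure D1:**
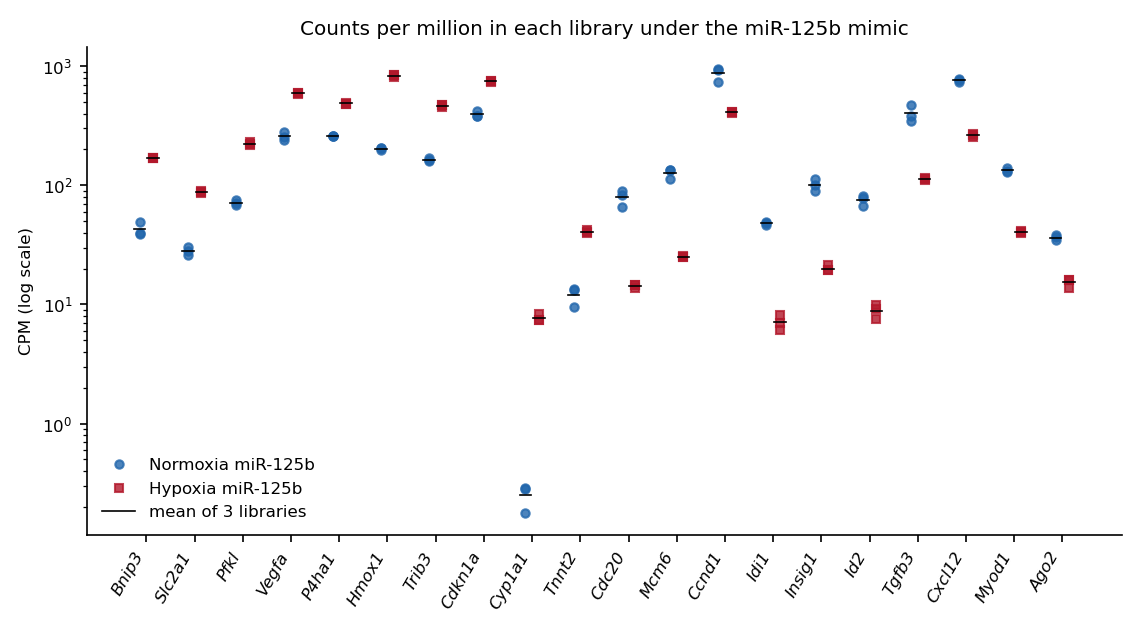
CPM on a log scale for 20 genes described in the text, in each of the 3 Normoxia miR-125b libraries (circles) and the 3 Hypoxia miR-125b libraries (squares), with the mean of each group as a line. The groups do not overlap for any gene shown, from *Bnip3* at 169 to 170 CPM in hypoxia and 38.9 to 49.4 CPM in normoxia to *Idi1* at 6.07 to 8.20 CPM and 46.7 to 49.0 CPM. These genes were chosen with results known, and the groups did not overlap for 59.9% of all genes tested.

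**Figure D2:**
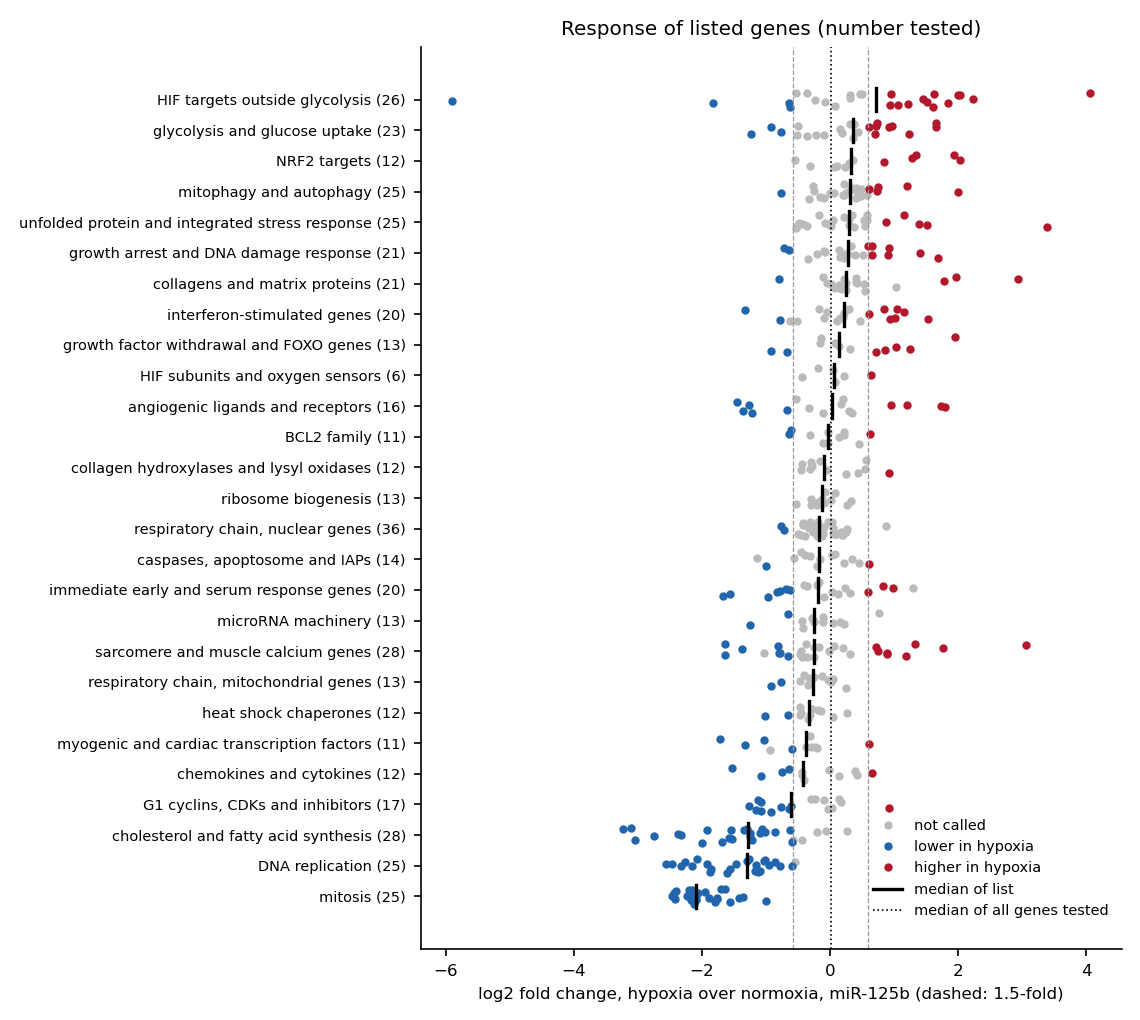
Log2 fold change of hypoxia over normoxia for every tested member of 27 gene lists, ordered by the median of the list (black bar), with the number tested in parentheses. The lists of mitosis, DNA replication and cholesterol and fatty acid synthesis lie to the left, with medians of -2.09, -1.29 and -1.28, and HIF targets outside glycolysis lie furthest to the right, with a median of 0.72.

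The oxygen-sensing genes themselves changed little. *Hif1a*, the oxygen-labile subunit, was at 123, 122 and 122 CPM in hypoxia and 149, 133 and 135 CPM in normoxia, a log2 fold change of -0.18 ± 0.05 (SE) that did not reach 1.5-fold (edgeR, adjusted p = 0.0161). Its partner *Arnt* had a log2 fold change of 0.22 and the hydroxylase *Hif1an*, which blocks HIF transactivation when oxygen is present, one of -0.43, both without a call. *Vhl*, the adaptor that marks hydroxylated HIF for degradation, rose from 61.5, 69.0 and 64.5 CPM to 105, 97.2 and 98.6 CPM, by 0.63 ± 0.06 (adjusted p = 1.98e-05). It was the called gene among the 6 tested of this list.

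Of 26 HIF targets outside glycolysis that were tested, 13 (50%) rose and 4 (15.4%) fell, beside the backgrounds of 9.34% and 11.5%, and the median log2 fold change was 0.72. *Bnip3*, a mitophagy receptor of the outer mitochondrial membrane, read 170, 170 and 169 CPM in hypoxia and 49.4, 40.1 and 38.9 CPM in normoxia, a log2 fold change of 1.99 ± 0.08 (adjusted p = 2.43e-07). *Ankrd37*, a small ankyrin-repeat protein, stood at 6.14, 6.47 and 6.23 CPM against 1.6, 1.25 and 1.18 CPM (2.23 ± 0.17, adjusted p = 6.78e-06). *Ddit4*, which restrains mTORC1, was at 102, 105 and 108 CPM against 33.2, 35.2 and 34.2 CPM (1.62 ± 0.05, adjusted p = 8.55e-08). None of these values overlapped between the groups. *Car9*, the carbonic anhydrase that exports acid, rose by 1.61, the histone demethylase *Kdm3a* by 1.52, the mitochondrial protein gene *Higd1a* by 1.45, *Fam162a* by 1.21 and the vasodilator peptide gene *Adm* by 1.06 on the log2 scale. The low counts of *Ak4*, a mitochondrial adenylate kinase, were 0.534 to 0.814 CPM in hypoxia and at most 0.0716 CPM in normoxia, with 1 normoxia library at 0.

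Members of the same list also moved the other way. *Tgfb3*, a TGF-beta ligand, fell from 475, 349 and 380 CPM to 113, 114 and 110 CPM (-1.83 ± 0.10, adjusted p = 9.69e-07). The fall in *Ppfia4* was 0.65 and that in the kinase gene *Pim1* 0.62, and these 2 were not called with the libraries scaled by their totals alone (-0.57 and -0.54). *Tfrc*, the transferrin receptor, had a log2 fold change of -0.53 and *Bhlhe40* one of -0.36, neither at 1.5-fold. Without Normoxia replicate 1, 12 members of the list were called higher and 4 lower.

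To show what the promoters of these genes hold, the 250 bases before each gene's start were read from the RefSeq promoter table (GRCr8) and searched on both strands for the core of the hypoxia response element, ACGTG or GCGTG. The letters GCGTG are also the core of the element bound by the aryl hydrocarbon receptor. Of 28 HIF targets on the list 21 had a promoter entry, and 13 of these (61.9%) held the core. Of the 25 genes of glycolysis and glucose uptake 22 had an entry and 16 (72.7%) held it. The core was held by 37.8% of all 27457 promoters of the table and by 55.3% of the 9340 of genes tested here, so the share in the HIF targets was close to that of the genes tested. For each list the window shown is that of the called member that changed most among those holding a match and averaging 1 CPM or more, with the core in capitals. They lie at chr16:53001407-53001506 (plus strand) for *Ankrd37* and chr20:10663755-10663854 (plus strand) for *Pfkl*, each within the 250 bases before the start.
Ankrd37: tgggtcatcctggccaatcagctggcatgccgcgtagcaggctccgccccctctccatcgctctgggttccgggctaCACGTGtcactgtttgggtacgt
Pfkl: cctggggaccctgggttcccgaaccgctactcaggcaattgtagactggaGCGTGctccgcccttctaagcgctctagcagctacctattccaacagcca
The capitals of *Ankrd37* read the core on each strand, with the matches overlapping.

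Glycolysis genes were split between isoenzymes. Of 23 tested, 9 (39.1%) rose and 3 (13.0%) fell, and the median log2 fold change was 0.35. *Slc2a1*, the basal glucose transporter, read 85.5, 88.5 and 88.9 CPM in hypoxia and 26.0, 28.1 and 30.2 CPM in normoxia (1.65 ± 0.06, adjusted p = 1.98e-07). *Pdk1*, the kinase that keeps pyruvate out of the citric acid cycle, was at 22.5, 22.8 and 22.4 CPM against 9.74, 9.73 and 9.56 CPM (1.23 ± 0.07, adjusted p = 1.64e-06). The groups lay far apart for both genes. *Tpi1* rose by 0.97, *Aldoa* by 0.73, *Pkm* by 0.71, *Hk2* by 0.69 and *Pgk1* by 0.61 on the log2 scale, while *Eno1* (0.16), *Gapdh* (0.19) and *Ldha* (0.37) kept within 1.5-fold. *Eno2*, at 11.7, 5.50 and 5.67 CPM against 3.59, 4.65 and 3.93 CPM, was called at 0.92 ± 0.28 and was not called without Hypoxia replicate 1 (0.47), without Normoxia replicate 1 (0.83) or without Normoxia replicate 3 (0.89). *Pkm* shares its name with another identifier in the tables, so its counts are uncertain. Without Normoxia replicate 1, 8 members were called higher and 3 lower.

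The 3 genes of phosphofructokinase, which commits glucose to glycolysis, changed their order. Levels of different genes were compared by FPKM, a count scaled by gene length and library total. *Pfkl*, the liver form, was at 78.7, 79.6 and 82.8 FPKM in hypoxia and 26.9, 24.4 and 25.3 FPKM in normoxia. *Pfkm*, the muscle form, was at 25.0, 23.7 and 25.0 FPKM in hypoxia and 53.3, 41.7 and 45.2 FPKM in normoxia. *Pfkp*, the platelet form, was at 11.7, 12 and 12.7 FPKM against 23.2, 19.9 and 18.7 FPKM. *Pfkm* was thus the highest of the 3 in every normoxia library and *Pfkl* the highest in every hypoxia library. *Pfkl* made up 68.2%, 69.0% and 68.7% of the summed FPKM of the 3 genes in hypoxia and 26.0%, 28.4% and 28.4% in normoxia. The log2 fold changes of the counts were 1.66 ± 0.05 for *Pfkl* (adjusted p = 6.86e-08), -0.93 ± 0.08 for *Pfkm* (adjusted p = 1.71e-05) and -0.76 ± 0.08 for *Pfkp* (adjusted p = 6.56e-05). Of the lactate dehydrogenase genes 1 was called. *Ldhb*, whose subunit favours lactate oxidation, fell from 141, 139 and 128 FPKM to 56.1, 60 and 57.6 FPKM (log2 fold change of the counts -1.23 ± 0.05, adjusted p = 2.43e-07), while *Ldha*, which was not called, stood at 990, 1001 and 1037 FPKM in hypoxia and 848, 764 and 730 FPKM in normoxia.

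**Figure D3:**
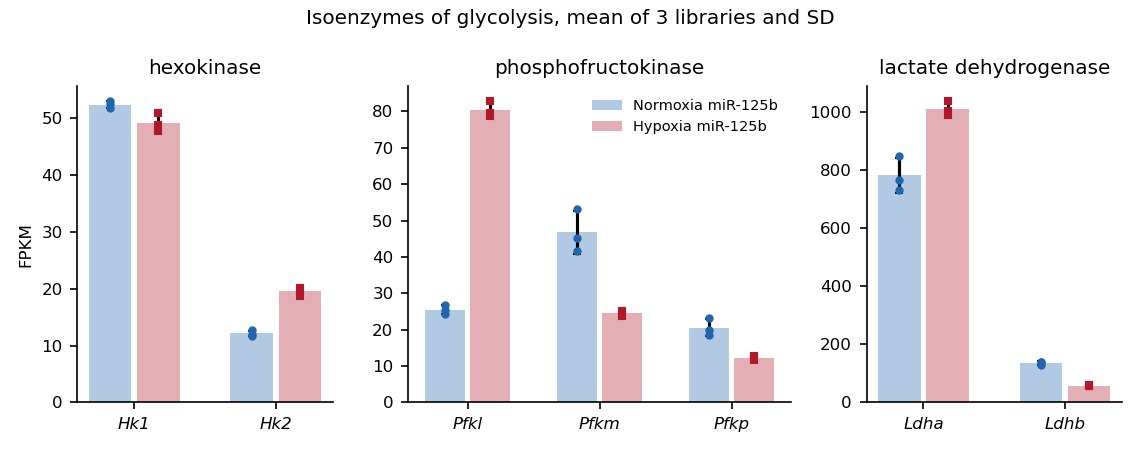
FPKM of the isoenzyme genes of hexokinase, phosphofructokinase and lactate dehydrogenase in the 6 libraries, with bars from 0 for the mean of 3 libraries, error bars for the SD and points for the libraries. *Pfkl* passes *Pfkm* between normoxia (26.9, 24.4 and 25.3 FPKM) and hypoxia (78.7, 79.6 and 82.8 FPKM), and *Ldhb* falls while *Ldha* does not.

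Among 16 angiogenic ligands and receptors, 4 rose and 5 fell. *Vegfa*, the principal endothelial growth factor, went from 280, 240 and 256 CPM to 596, 579 and 594 CPM (1.19 ± 0.06, adjusted p = 4.94e-07). *Figf*, which encodes VEGF-D, rose by 1.74 and *Angptl4*, an inhibitor of lipoprotein lipase, by 1.79, from levels of 0.853 to 1.64 CPM and 1.10 to 1.53 CPM. The rise of the receptor gene *Tek* was 0.94. The 5 that fell were the receptors *Flt1* (-1.46) and *Nrp1* (-1.22), endothelin-1 *Edn1* (-1.36) and the platelet-derived growth factor chains *Pdgfb* (-1.26) and *Pdgfa* (-0.67). *Nrp1*, a co-receptor for VEGF, was at 21.2, 20.2 and 21.4 CPM in hypoxia and 50.1, 49.0 and 48.0 CPM in normoxia. Of 12 collagen hydroxylases and lysyl oxidases, *P4ha1*, the catalytic subunit of prolyl 4-hydroxylase, was called. It read 483, 491 and 485 CPM against 261, 257 and 259 CPM (0.92 ± 0.04, adjusted p = 2.43e-07). *P4ha2* (0.56) and *Plod2* (0.55) lay just under 1.5-fold, and both were called with the libraries scaled by their totals alone (0.64 and 0.63).

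Respiratory chain genes shifted by small amounts. Of 36 nuclear genes tested, 2 fell and 0 rose, with a median log2 fold change of -0.17. These were the cytochrome c oxidase subunits *Cox6c*, at 116, 108 and 108 CPM against 202, 188 and 178 CPM (-0.77 ± 0.06, adjusted p = 5.79e-06), and *Cox5a*, at 85.9, 82.7 and 79.4 CPM against 140, 138 and 131 CPM (-0.72 ± 0.05, adjusted p = 3.73e-06). Of the 13 protein genes of mitochondrial DNA, *Mt-nd4l* (-0.92) and *Mt-nd4* (-0.76), which lie side by side and encode subunits of complex I, fell. The other 11 ranged from -0.46 for *Mt-nd2* to 0.25 for *Mt-atp8* without a call. The share of all counts on the 35 mitochondrial genes was 3.46% to 3.58% in hypoxia and 3.44% to 3.80% in normoxia, and the groups overlapped.

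All 25 mitosis genes tested fell, and the hypoxia libraries lay wholly below the normoxia libraries for each. The median log2 fold change of the list was -2.09 and the range -2.46 to -0.999, against 0.014 for all genes tested. *Cdc20*, the activator of the anaphase-promoting complex, was at 14.6, 13.8 and 14.7 CPM in hypoxia and 65.8, 89.5 and 83.3 CPM in normoxia (-2.46 ± 0.11, adjusted p = 3.86e-07). *Plk1*, the polo-like kinase of the spindle, was at 23.1, 23.3 and 22.8 CPM against 108, 140 and 130 CPM (-2.44 ± 0.09, adjusted p = 1.79e-07). *Ccna2*, cyclin A2, was at 13.8, 15.7 and 14.9 CPM against 67.9, 85.0 and 85.4 CPM (-2.42 ± 0.10, adjusted p = 2.43e-07). The normoxia values of these 3 were lowest in replicate 1. The proliferation marker *Mki67* fell by 2.14, topoisomerase *Top2a* by 2.20, cyclin B1 *Ccnb1* by 2.15, the kinases *Aurka* by 2.23 and *Aurkb* by 2.12, and *Cdk1*, the kinase that drives entry into mitosis, by 1.56. The smallest change was in *Birc5*, a passenger of the dividing chromosome, at -0.999. All 25 were also called without Normoxia replicate 1.

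Of 25 DNA replication genes, 24 fell and 0 rose, with a median of -1.29. *Rrm2*, the regulated subunit of ribonucleotide reductase, was at 17.4, 17.7 and 17.8 CPM in hypoxia and 89.3, 108 and 117 CPM in normoxia (-2.56 ± 0.10, adjusted p = 1.75e-07). *Mcm6*, a subunit of the replicative helicase, was at 25.0, 25.0 and 25.3 CPM against 112, 134 and 134 CPM (-2.33 ± 0.07, adjusted p = 8.55e-08). Within the helicase the changes differed in size, from -2.33 for *Mcm6* and -2.07 for *Mcm5* to -1.85 for *Mcm3*, -1.16 for *Mcm2*, -1.13 for *Mcm7* and -1.10 for *Mcm4*. *Tk1*, thymidine kinase, fell by 2.47 and the licensing factor *Cdc6* by 2.26. *Pcna*, the sliding clamp, had the smallest called change (-0.59) and was not called without Hypoxia replicate 2 (-0.58), Normoxia replicate 2 (-0.53) or Normoxia replicate 3 (-0.56). *Rfc4* was the member without a call, at -0.55, and it was called without Hypoxia replicate 1 (-0.63) or Normoxia replicate 1 (-0.70).

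Of 17 genes of the G1 phase, 9 fell and 1 rose. *Ccnd1*, cyclin D1, which couples growth factors to the cycle, went from 738, 942 and 931 CPM to 407, 413 and 413 CPM (-1.08 ± 0.08, adjusted p = 7.90e-06). *Ccne1* fell by 1.13, *Ccne2* by 1.15, *E2f1* by 1.08 and *Rbl1* by 1.26. *Cdkn1a*, the p21 inhibitor of cyclin-dependent kinases, rose from 419, 384 and 379 CPM to 753, 742 and 744 CPM (0.93 ± 0.05, adjusted p = 7.28e-07). Its relative *Cdkn1b* was not called, with a log2 fold change of -0.03 and an adjusted p of 0.80, and *Cdk4* had one of 0.17.

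The promoters of the mitosis genes were searched for the CCAAT box and for the cell-cycle homology region TTTGAA. Those of the DNA replication genes were searched for the E2F site GCGGGAA alone, and those of the G1 genes were not searched. Both strands of the same 250 bases were read. Of the 26 mitosis genes 22 had an entry, of which 17 (77.3%) held CCAAT and 9 (40.9%) held TTTGAA. Among the promoters of genes tested 35.3% held CCAAT and 10.2% held TTTGAA, and among all promoters 34.2% and 16.1%. The E2F site was in 5 of 21 promoters (23.8%) of DNA replication genes, in 6.39% of those of genes tested and in 3.58% of all. The windows of the called members with the largest change that held the motif are shown, with the motifs searched in that list in capitals. CCAAT was marked only in the window of *Cdc20*, and the CCAAT letters in that of *Mcm5* were left in lower case. *Cdc20* lies at chr5:137255800-137255899 (minus strand) and holds TTTGAA between 2 CCAAT boxes, and *Mcm5* lies at chr19:13488713-13488812 (plus strand) and reads the E2F site on the opposite strand.
Cdc20: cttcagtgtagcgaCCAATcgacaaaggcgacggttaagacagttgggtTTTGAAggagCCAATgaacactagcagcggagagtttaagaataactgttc
Mcm5: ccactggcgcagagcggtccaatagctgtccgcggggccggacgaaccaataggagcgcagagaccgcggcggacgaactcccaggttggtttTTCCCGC
Both windows end at the base before the start of the gene. A match is a description of the letters and does not show a bound site.

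Sterol synthesis fell along its length. Of 28 genes of cholesterol and fatty acid synthesis, 23 (82.1%) fell and 0 rose, with a median of -1.28. *Idi1*, isopentenyl diphosphate isomerase, was at 6.07, 6.94 and 8.20 CPM in hypoxia and 49.0, 46.7 and 47.9 CPM in normoxia (-2.75 ± 0.10, adjusted p = 1.63e-07). *Insig1*, the feedback regulator of the pathway, was at 19.5, 19.3 and 21.3 CPM against 89.0, 101 and 113 CPM (-2.33 ± 0.09, adjusted p = 2.07e-07). *Fdft1*, squalene synthase, was at 21.5, 20.9 and 21.3 CPM against 88.1, 84.6 and 83.6 CPM (-2.0 ± 0.05, adjusted p = 4.27e-08). No hypoxia value of these 3 came near a normoxia value. The synthase gene *Hmgcs1* fell by 1.69 and the transcription factor *Srebf2* by 1.06. Of the fatty acid genes, the desaturase *Scd1* fell from 4.62, 4.90 and 5.03 CPM to 0.367, 0.375 and 0.782 CPM (-3.23), and fatty acid synthase *Fasn* by 1.02. *Scd2*, at a mean of 427 CPM the more abundant desaturase, had a log2 fold change of -0.07 (adjusted p = 0.193), and the factor *Srebf1* had one of 0.26. Without Normoxia replicate 1, 22 of the list were called lower.

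A CCAAT box stood in 14 of the 16 promoters of this list that had an entry (87.5%), beside 35.3% of the promoters of genes tested. The window of *Idi1*, chr17:66547525-66547624 on the minus strand, carries the box on the opposite strand in 2 places.
Idi1: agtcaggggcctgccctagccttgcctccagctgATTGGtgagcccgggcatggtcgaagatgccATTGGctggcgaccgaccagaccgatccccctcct

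Of 25 genes of the unfolded protein and integrated stress response, 5 rose and 0 fell. *Trib3*, a pseudokinase induced by ATF4, read 470, 470 and 458 CPM in hypoxia and 159, 162 and 171 CPM in normoxia (1.51 ± 0.04, adjusted p = 6.43e-08). *Ddit3*, the factor CHOP, read 224, 206 and 200 CPM against 81.3, 80.3 and 78.8 CPM (1.4 ± 0.05, adjusted p = 1.75e-07). *Ppp1r15a*, which restores translation by dephosphorylating eIF2-alpha, rose by 1.15, *Atf3* by 0.87 and *Fgf21* by 3.38, the last from counts of at most 0.107 CPM with 1 normoxia library at 0. The chaperones of the endoplasmic reticulum showed no rise. *Hspa5* had a log2 fold change of 0.04, *Hsp90b1* -0.36, *Calr* -0.53 and *Pdia4* -0.48, and the amino acid gene *Asns* had one of 0.21. With the libraries scaled by their totals alone 9 genes were called higher, since *Dnajb9*, *Sesn2*, *Atf6* and *Ern1* passed 1.5-fold. Of 12 cytosolic heat shock genes 2 fell, of which *Hspb1*, a small heat shock protein, went from 767, 736 and 703 CPM to 363, 362 and 364 CPM (-1.01 ± 0.04, adjusted p = 3.26e-07), and the other was *Hspb8* (-0.65).

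Of 12 NRF2 targets, 5 (41.7%) rose and 0 fell. *Hmox1*, heme oxygenase 1 and also a HIF target, was at 842, 835 and 806 CPM in hypoxia and 207, 204 and 198 CPM in normoxia (2.03 ± 0.04, adjusted p = 8.46e-09). *Nqo1*, a quinone reductase, was at 1046, 1048 and 1055 CPM against 388, 480 and 434 CPM (1.28 ± 0.07, adjusted p = 9.69e-07). *Osgin1* rose by 1.93, the sulfiredoxin *Srxn1* by 1.35 and the glutathione synthesis gene *Gclc* by 0.83. *Txnrd1* (0.07) and *Gsr* (0.11), the reductases of thioredoxin and glutathione, stayed close to 0. Of 25 mitophagy and autophagy genes 5 rose and 1 fell. Besides *Bnip3*, the cargo receptor *Sqstm1* was at 1420, 1385 and 1376 CPM against 662, 565 and 591 CPM (1.21 ± 0.06, adjusted p = 5.60e-07), and the kinase *Pink1* rose by 0.74. *Optn*, another cargo receptor, fell by 0.76.

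Of 21 genes of growth arrest and the DNA damage response, 7 rose and 2 fell. *Gadd45a*, a growth arrest gene, was at 251, 244 and 238 CPM in hypoxia and 88.0, 92.0 and 97.3 CPM in normoxia (1.41 ± 0.05, adjusted p = 1.61e-07). The ubiquitin ligase *Mdm2* rose by 0.65 and *Ddb2* by 0.66, and the stress cytokine *Gdf15* by 1.68 from at most 0.322 CPM. *Pmaip1*, the pro-apoptotic NOXA, was at 84.2, 88.4 and 87.8 CPM against 134, 139 and 135 CPM and fell by 0.64. It was not called with the libraries scaled by their totals alone (-0.56). *Ccng1* (0.22), *Fas* (0.29), *Btg2* (0.14) and *Zmat3* (-0.09) were not called.

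The study names genes of apoptosis, many of them predicted targets of miR-125b. Of the 15 genes it names that were tested, 3 rose and 1 fell, beside the backgrounds of 9.34% and 11.5%. *Bax*, which permeabilises the outer mitochondrial membrane, rose from 158, 150 and 168 CPM to 256, 237 and 239 CPM (0.63 ± 0.05, adjusted p = 1.41e-05). *Tnnt2*, described with the muscle genes, rose as well. Of 11 genes of the BCL2 family, *Bax* rose, while *Bcl2* (-0.61) and *Pmaip1* fell. *Bak1* had a log2 fold change of -0.04 (adjusted p = 0.79), *Bcl2l11*, which encodes BIM, 0.22, *Bmf* 0.45, *Traf6* -0.53, *Tp53inp1* 0.51, *Dram2* 0.22 and *Casp2* 0.08. *Tp53inp2* fell by 0.66 and was not called without Normoxia replicate 1 (-0.56). *Tnfrsf1b* had a mean of 0.595 CPM and a log2 fold change of -0.40 (adjusted p = 0.40). Of 14 genes of caspases, the apoptosome and inhibitors of apoptosis, *Casp12* (0.61, and 0.55 without Hypoxia replicate 1, where it was not called) rose and *Birc5* fell, while *Casp9* (0.46) and *Apaf1* (-0.20) stayed within 1.5-fold.

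The muscle genes went both ways. Of 28 sarcomere and calcium genes tested, 8 rose and 7 fell, and the median log2 fold change was -0.25. *Tnnt2*, cardiac troponin T, was at 40.6, 39.8 and 41.9 CPM in hypoxia and 13.4, 9.48 and 13.2 CPM in normoxia (1.77 ± 0.12, adjusted p = 2.89e-06). *Myh3*, the embryonic myosin heavy chain, was at 15.3, 18.4 and 15.6 CPM against 10.3, 7.05 and 4.35 CPM (1.19 ± 0.25, adjusted p = 0.00323). The fast troponin T gene *Tnnt3* rose by 0.75. Cardiac actin *Actc1* was at 0.901 to 1.78 CPM in hypoxia and 0.0711 to 0.357 CPM in normoxia. In the other direction, the adult fast myosin *Myh1* fell from 68.9, 70.1 and 76.8 CPM to 22.0, 24.5 and 22.2 CPM (-1.64 ± 0.07, adjusted p = 2.43e-07). *Myom1*, which crosslinks the M-band, fell by 1.64, the calcium-binding *Casq2* by 1.38 and tropomyosin *Tpm1* by 0.81. The thin filament and heart muscle genes named by the size of their fall were *Lmod3*, which nucleates actin filaments, from 76.5, 51.6 and 53.7 CPM to 4.51, 5.13 and 4.51 CPM (-3.68 ± 0.16, adjusted p = 3.51e-07), and *Xirp1*, from 7.11, 4.90 and 6.71 CPM to 0.634, 0.281 and 0.501 CPM (-3.71 ± 0.28, adjusted p = 6.75e-06).

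Of 11 myogenic and cardiac transcription factors, 4 fell and 1 rose. *Myod1*, which commits cells to the muscle lineage, was at 40.6, 40.0 and 41.0 CPM in hypoxia and 128, 141 and 132 CPM in normoxia (-1.71 ± 0.05, adjusted p = 6.86e-08). *Myocd*, a partner of SRF, fell by 1.32, *Gata6* by 1.04 and *Srf* by 0.60. *Myog*, which acts after *Myod1* in differentiation, was at 62.9, 61.9 and 61.1 CPM against 36.5, 42.6 and 43.5 CPM, a log2 fold change of 0.61 ± 0.07 (adjusted p = 9.61e-05), and was not called without Normoxia replicate 1 (0.53). The inhibitors of these factors, the Id genes, were named after their values were seen. *Id1* was at 14.7, 14.4 and 15.2 CPM against 90.9, 104 and 95.9 CPM (-2.70 ± 0.07, adjusted p = 2.87e-08), *Id2* fell by 3.09 and *Id3* by 2.91. Of the marker list for myoblasts, 3 of 8 tested rose and 3 fell, among them the subunit of the acetylcholine receptor *Chrna1*, which rose by 2.21.

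Of 21 collagens and matrix proteins 3 rose and 1 fell. The 3 were small leucine-rich proteoglycans of the same family. *Dcn*, decorin, was at 11.6, 13.1 and 12.1 CPM in hypoxia and 1.14, 1.72 and 1.96 CPM in normoxia (2.94 ± 0.19, adjusted p = 2.59e-06). *Lum*, lumican, was at 14.4, 15.9 and 16.5 CPM against 2.67, 4.37 and 5.00 CPM (1.96 ± 0.20, adjusted p = 4.05e-05), and *Ogn*, osteoglycin, whose name is carried by another identifier as well, rose by 1.77. *Bgn*, biglycan, of the same family, had a log2 fold change of 0.24. *Col1a1* (-0.04), *Col1a2* (0.01) and *Fn1* (0.14) stayed close to 0, and *Col12a1* fell by 0.79.

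Genes that answer to serum were split. Of 20 immediate early and serum response genes, 7 fell and 3 rose. *Cyr61*, a matricellular protein, was at 155, 156 and 152 CPM in hypoxia and 423, 453 and 496 CPM in normoxia (-1.56 ± 0.06, adjusted p = 1.82e-07), and *Ctgf* fell by 0.68, the receptor *Nr4a1* by 1.68 and the phosphatase *Dusp1* by 0.83. *Klf4* rose by 0.99 and *Myc* by 0.83. *Fos* was at 3.94, 2.94 and 3.76 CPM against 3.13, 8.73 and 9.07 CPM, so the groups overlapped, and its fall of 0.97 was not called without any of 5 of the 6 libraries (-1.05 to -0.74). Of 13 genes tied to growth factor withdrawal and FOXO, 5 rose and 2 fell. *Klf15*, a glucocorticoid-responsive factor, rose by 1.95, *Txnip*, which binds thioredoxin, by 1.25, *Pik3ip1*, an inhibitor of PI3 kinase, by 1.03 and the muscle ubiquitin ligase *Trim63* by 0.72. *Igf1r*, the receptor of insulin-like growth factor 1, fell by 0.92 and *Foxo1* by 0.68.

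Of 12 chemokine and cytokine genes 4 fell and 1 rose. *Cxcl12*, a stem cell chemokine, was at 255, 262 and 270 CPM in hypoxia and 739, 777 and 770 CPM in normoxia (-1.53 ± 0.04, adjusted p = 6.43e-08). *Tgfb2* fell by 1.08 and *Csf1* by 0.75. *Il6* rose by 0.65 and was not called without Normoxia replicate 1 (0.57). Of 20 interferon-stimulated genes, 7 rose and 2 fell. The peptide transporter *Tap1* was at 70.5, 71.1 and 70.6 CPM against 36.8, 37.9 and 36.8 CPM (0.93 ± 0.05, adjusted p = 8.01e-07). *Ifi44* rose by 1.04 and *Ifit2* by 0.84, while *Isg15* (-0.05), *Irf7* (0.16) and *Stat2* (0.11) were not called. Ribosome biogenesis genes gave 0 calls among 13 in either direction, although 8 had an adjusted p below 0.05 in edgeR's test with a fold change under 1.5, from -0.53 for *Ncl* to 0.33 for *Pes1*. DESeq2 called 0 of them as well.

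Of the 13 genes of microRNA processing and silencing that were tested, 2 fell. *Ago2*, the Argonaute protein that cuts targets, was at 13.7, 16.2 and 16.1 CPM in hypoxia and 38.1, 34.5 and 36.6 CPM in normoxia (-1.24 ± 0.08, adjusted p = 2.83e-06). *Ago3* was at 3.91, 3.88 and 4.38 CPM against 7.04, 6.37 and 5.89 CPM (-0.66 ± 0.14, adjusted p = 0.00335), and was not called with the libraries scaled by their totals alone (-0.58). *Ago1* had a log2 fold change of -0.44, *Drosha* 0.04, *Dicer1* -0.25 and *Xpo5* -0.10, none of them called.

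The named genes with the largest rise included targets of the aryl hydrocarbon receptor, a factor that shares the partner *Arnt* with HIF. *Cyp1a1*, a cytochrome P450 that oxidises aromatic hydrocarbons, was at 8.28, 7.41 and 7.45 CPM in hypoxia and 0.284, 0.286 and 0.178 CPM in normoxia (4.93 ± 0.21, adjusted p = 2.89e-07). *Aldh3a1*, an aldehyde dehydrogenase, was at 94.1, 89.2 and 94.8 CPM against 1.88, 9.45 and 5.25 CPM (4.07 ± 0.35, adjusted p = 1.44e-05). Other genes of this pathway were named after their values were seen. The receptor repressor *Ahrr* rose by 1.51 and *Tiparp* by 1.37, while *Cyp1b1*, at 347 to 419 CPM in normoxia, had a log2 fold change of 0.37 and the receptor gene *Ahr* one of -0.22, neither of which reached 1.5-fold. *7SK* is a small nuclear RNA without a poly-A tail, and its name is carried by 9 of the rows tested, of which 1 was called. That row was at 5.71, 4.69 and 4.66 CPM against 0.0356, 0.215 and 0.107 CPM (5.36 ± 0.36, adjusted p = 3.10e-06). The share of ribosomal RNA given above was also higher in hypoxia, but within normoxia it was highest in replicate 1, where *7SK* was lowest. The share on small nuclear RNA genes was 0.00473% to 0.00487% in hypoxia and 0.00524% to 0.00603% in normoxia. That on genes labelled miscellaneous RNA was 0.00178% to 0.00193% and 0.00100% to 0.00116%. A link of *7SK* with these shares was not tested. The mechanosensitive channel gene *Piezo2* (4.03), the teneurin *Tenm4* (4.12), the kinase *Dapk1* (4.0), the glucagon receptor *Gcgr* (2.98) and *Mef2b* (2.64) rose from less than 1 CPM in every normoxia library. *Echs1*, an enzyme of fatty acid oxidation, was at 8.81, 0.907 and 3.91 CPM in hypoxia and 0.320 to 0.608 CPM in normoxia, with a wide spread among the hypoxia libraries (3.28 ± 0.72). Among the named genes with a large fall were *Chrdl2*, an antagonist of bone morphogenetic proteins, at 0.0313 to 0.300 CPM against 2.00 to 3.88 CPM (-4.35 ± 0.51), *Evi2a* (-3.80), *Prokr1* (-3.39), *Asb12* (-3.30) and the connexin *Gja4* (-3.27).

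The same contrast was fitted for the 4 isomiRs, none of which shares a library with it, to set the calls side by side. Under Plus A 10.0% of the genes tested were called higher in hypoxia and 12.8% lower, under Trim A 12% and 14.5%, under Trim AG 15.0% and 17.8%, and under Trim AGU 13.6% and 13.4%. Of the 1403 genes higher under miR-125b, 66.5% were called higher under Plus A, 62.2% under Trim A, 57.9% under Trim AG and 52.0% under Trim AGU, which is 62.1%, 48.6%, 35.5% and 36.2% of the calls under those mimics. Of the 1732 genes lower, 79.6%, 79.2%, 76.3% and 68.8% were called lower in the same order, which is 71.6%, 63.1%, 48.6% and 60.2% of the calls there. In all 4 isomiR contrasts 463 of the 1403 (33%) and 951 of the 1732 (54.9%) were called the same way. Across genes, which are not independent replicates, the log2 fold changes had a Pearson correlation of 0.83 with those under Plus A, 0.80 under Trim A, 0.71 under Trim AG and 0.74 under Trim AGU. Of the Hypoxia Trim AGU libraries, replicate 2 had 16981 genes detected, beside 18663 and 18455 in replicates 1 and 3. Its share of counts on ribosomal protein genes was 6.98%, beside 3.78% and 4.97%. The part of this library in the values under Trim AGU was not tested. The lists of mitosis, DNA replication and cholesterol and fatty acid synthesis had the 3 lowest medians under every mimic, in an order that varied, with medians of -2.25 to -1.49 for mitosis and -1.49 to -1.28 for cholesterol and fatty acid synthesis.

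**Figure D4:**
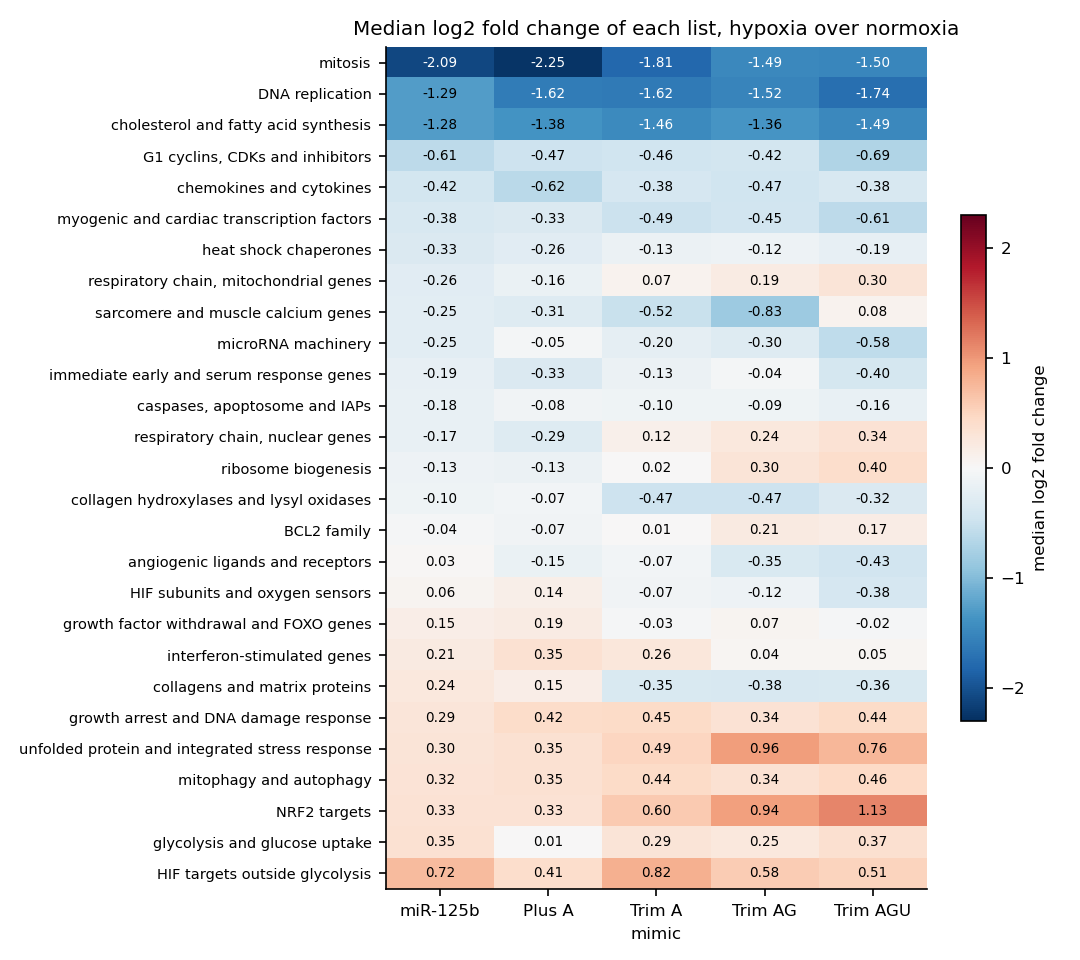
Median log2 fold change of hypoxia over normoxia for each gene list (rows) under miR-125b and the 4 isomiRs (columns), from 6 libraries per column, with the value printed in each cell. Mitosis, DNA replication and cholesterol and fatty acid synthesis are the lowest rows in all 5 columns, and NRF2 targets go from 0.33 under miR-125b to 1.13 under Trim AGU. The Trim AGU column includes Hypoxia Trim AGU replicate 2, which had fewer genes detected than the other replicates.

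Whether a response differed was tested as an interaction over 12 libraries against Plus A, Trim A and Trim AG, and the 3 tests share the 6 miR-125b libraries. The difference from Trim AGU was not tested. Against Plus A, which carries 1 extra base, the response was higher under miR-125b for 2 of 15569 genes (0.0128%) and lower for 1 (0.00642%), although 2509 genes had an unadjusted p below 0.05. None of the 503 listed genes tested was among them in edgeR's test. In normoxia *Cav1* read 274, 102 and 102 CPM under Plus A and 106, 290 and 270 CPM under miR-125b. *Lmod3* read 51.5, 76.3 and 75.6 CPM and 76.2, 51.7 and 53.7 CPM. For both genes, replicate 1 of each mimic lay near replicates 2 and 3 of the other. Such a spread within groups widens the error of this test, so the low count does not show that the responses were alike. A fit without both of these replicate 1 libraries was not made. *Foxc2*, a forkhead factor, fell by 0.90 under miR-125b and by 1.95 under Plus A, a difference of 1.05 ± 0.16 (edgeR, adjusted p = 0.0441). It was at 8.49, 8.51 and 8.89 CPM in hypoxia and 15.0, 16.1 and 17.5 CPM in normoxia under miR-125b, and at 4.52, 3.83 and 4.43 CPM and 17.7, 14.3 and 17.9 CPM under Plus A. The call on *Foxc2* held in 5 of 16 alternatives. The other 2 were rows of *Pfkfb4* (7.54) and *Cask* (-5.39) whose names are carried by another identifier, with at most 3.02 CPM in any of the libraries compared. Against Trim A, 75 of 15534 genes (0.483%) responded higher and 19 (0.122%) lower under miR-125b. These counts rested on which libraries were fitted: they were 781 and 360 without Hypoxia Trim A replicate 1, and 0 and 0 without Hypoxia Trim A replicate 3, Hypoxia miR-125b replicate 2 or 3, or Normoxia miR-125b replicate 1 or 2. Hypoxia Trim A replicate 1 had 3.41% of its counts on mitochondrial genes and replicates 2 and 3 had 5.01% and 4.47%.

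Against Trim AG, which lacks the last 2 bases, 1088 of 15603 genes (6.97%) responded higher and 669 (4.29%) lower under miR-125b. Without Hypoxia Trim AG replicate 1 the counts were 1513 and 1032. Of the 503 listed genes, 67 were higher and 58 lower. The hypoxia libraries of Trim AG were deeper, at 39940056 to 42672520 counts, and replicate 1 of them had 3.52% of its counts on mitochondrial genes and 3.43% on ribosomal protein genes, beside 5.29% and 4.57%, and 4.66% and 4.07%, in replicates 2 and 3. The part of depth and of these shares was not tested. *Myog* was at 62.5, 61.5 and 60.9 CPM in hypoxia under miR-125b and at 11.7, 10.7 and 11.6 CPM under Trim AG, while in normoxia it was at 36.4, 42.6 and 43.5 CPM and at 39.4, 52.2 and 40.9 CPM. Its response differed by 2.62 ± 0.14 (edgeR, adjusted p = 4.67e-07). For *Tnnt2* the hypoxia values were 40.3, 39.6 and 41.8 CPM and 14.6, 16.7 and 16.1 CPM, and the responses of 1.77 and -0.89 differed by 2.70 ± 0.26 (adjusted p = 3.61e-05). The matrix genes *Bgn* (2.11), *Col6a3* (2.35), *Lum* (1.92), *Ogn* (3.97) and *Eln* (1.67) also responded higher under miR-125b. In hypoxia under Trim AG *Bgn* was at 306, 145 and 219 CPM and *Col6a3* at 39.5, 13.3 and 22.0 CPM, highest in replicate 1 for both. In the list of sarcomere and muscle calcium genes 11 responded higher and 2 lower under miR-125b, and in the list of collagens and matrix proteins 9 and 0.

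The stress response went the other way. *Trib3* rose by 1.51 under miR-125b and by 3.69 under Trim AG, a difference of -2.14 ± 0.10 (edgeR, adjusted p = 1.27e-07). In hypoxia it stood at 467, 467 and 456 CPM and 577, 544 and 551 CPM, and in normoxia at 158, 163 and 171 CPM and 46.7, 38.5 and 43.5 CPM, so the larger part of the difference lay in the normoxia libraries. *Ddit3* (-1.96) and *Asns* (-1.60) differed in the same direction, and of the unfolded protein and integrated stress response list 14 of 25 genes responded lower and 0 higher under miR-125b. In normoxia *Ddit3* stood at 81.0, 80.3 and 78.9 CPM under miR-125b and 21.6, 25.5 and 24.5 CPM under Trim AG. Its hypoxia values were 223, 205 and 199 CPM and 212, 291 and 256 CPM. *Asns* was lower under Trim AG in normoxia and higher under Trim AG in hypoxia. Of the 12 NRF2 targets 6 responded lower and 0 higher. Of the 25 mitosis genes 6 responded lower and 0 higher, so the fall was larger under miR-125b for these 6. *Dhcr7* (1.59), a sterol reductase gene, fell less under miR-125b than under Trim AG. *Chrm2*, the muscarinic receptor of the heart, fell by 2.18 under miR-125b and had a log2 fold change of -0.14 under Trim AG.

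**Figure D5:**
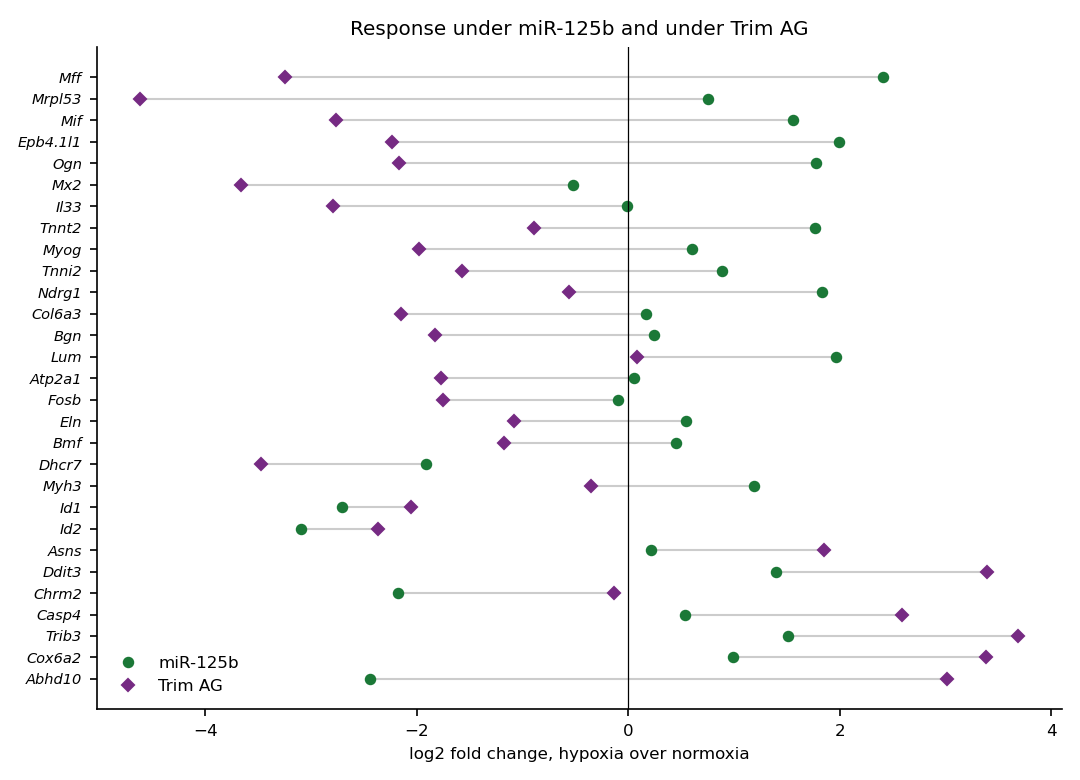
Log2 fold change of hypoxia over normoxia under miR-125b (circles) and under Trim AG (diamonds) for 29 named or listed genes with a called difference, ordered by the difference. Muscle and matrix genes such as *Tnnt2* (1.77 and -0.89) and *Bgn* (0.24 and -1.83) lie further right under miR-125b, and the stress genes *Trib3* (1.51 and 3.69) and *Ddit3* (1.4 and 3.39) further right under Trim AG.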

How the data were processed

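The 6 libraries are non-stranded poly-A RNA libraries of H9C2 cells, and the labels do not say that replicates came from separate cultures, so p-values measure the spread between these samples, which may be technical. The authors deposited raw counts per gene, and HISAT2 and StringTie are named in the submitters' processing notes, while their roles and the genome build are not given in the sources used here. The authors also deposited FPKM values, used here only to compare levels between genes. The columns of the authors' own fold changes and p-values were not used.

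Counts were joined by gene identifier, with an absent gene as 0. Counts were tested with edgeR 4.0.16 in R 4.3.3 (TMM, filterByExpr, quasi-likelihood test, Benjamini-Hochberg). Called genes had an adjusted p below 0.05 and at least 1.5-fold. SE was the log2 fold change over the root of F, so it is approximate. Only the compared groups entered a fit, and interactions used 12 libraries. Alternatives were DESeq2 1.42.0, other scalings, no filter, other folds, a replicate block, all libraries in 1 fit and leaving out each library. Depth was 28737057 to 30994348 counts. In simulated counts for this contrast (14849 genes, 200 of them changed), 74.9% of 2-fold and 96.8% of 4-fold changes were called and 6.03% of calls were false. In the data a larger share of genes was called (9.34% higher and 11.5% lower). No simulated library was made to stand apart as Normoxia replicate 1 did. These rates therefore need not hold for the calls reported here.

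The genes and lists were chosen with earlier results of these data known. Named genes were, in each direction, the 10 called ones that changed most, with a mean of at least 1 CPM, no overlap of groups and a gene name, then list members, the genes the study names, and for each interaction the 5 called ones each way that differed most, with no overlap in the miR-125b libraries. Of 581 distinct symbols 560 had a row and 503 were tested, and 7 names were carried by more than 1 identifier. Results of a few genes are not reported here.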

Additional observations from a re-analysis of the deposited data

Results flagged for a closer look

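The responses that follow differed between mimics by a test of the difference itself, the edgeR interaction term, and each value is the log2 response under miR-125b minus that under the other mimic. All 3 tests use the same 6 miR-125b libraries.

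Against Plus A the difference was called for 2 genes in one direction and 1 in the other, among them *Foxc2* (1.05). In normoxia, replicate 1 of each mimic lay near replicates 2 and 3 of the other for *Cav1* and *Lmod3*. The low count therefore does not show that the responses were alike.

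Against Trim A the counts were 75 and 19. The called genes were few in each list, with 2 of 28 sarcomere genes, 1 of 11 myogenic factors and 3 of 21 matrix genes higher under miR-125b, and 1 of 25 genes of the unfolded protein and integrated stress response and 3 of 21 genes of growth arrest lower. Those higher included *Tnnt2* at 1.88, *Myog* at 1.03, the myosin *Myh1* at 0.84, lumican *Lum* at 1.57, *Col6a3* at 1.88, tenascin *Tnc* at 1.86, periostin *Postn* at 0.94, *Olfml2b* at 2.25 and the receptor *Nrp1* at 0.67. *Mff*, whose name is carried by another identifier, was at 3.85. Those lower included *Ddit3* at -0.87, *Mdm2* at -0.62, *Ccng1* at -0.60 and *Fas* at -0.67. The remaining 4 were *Adh7* (-1.25), *Abhd10* (-4.57), *Sepw1* (-3.10) and *Tmem116* (-1.21). The name *Abhd10* is carried by another identifier as well. *Sepw1* spread widely within groups, at 32.1, 22.0 and 11.8 CPM in normoxia under miR-125b and 35.6, 1.91 and 28.0 CPM under Trim AG. Each of these 18 calls was lost under some alternatives, as the next section gives.

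Against Trim AG the counts were 1088 and 669. Of the 28 sarcomere genes 11 responded higher and 2 lower under miR-125b. The muscle genes named here were *Tnnt2* at 2.70, the fast troponin I gene *Tnni2* at 2.50, *Myog* at 2.62, *Myh3* at 1.58 and the calcium pump gene *Atp2a1* at 1.87. Of the 21 matrix genes 9 responded higher and 0 lower, among them *Ogn* at 3.97, *Col6a3* at 2.35, *Bgn* at 2.11, *Lum* at 1.92 and elastin *Eln* at 1.67. The pro-apoptotic *Bmf* was at 1.66, the HIF target *Ndrg1* at 2.43, *Fosb* at 1.69, the alarmin *Il33* at 2.81, the interferon-stimulated *Mx2* at 3.17 and the sterol reductase *Dhcr7* at 1.59. *Mff* (5.69), *Mrpl53* (5.41), *Mif* (4.37) and *Epb4.1l1* (4.27) were also higher under miR-125b. *Mif* was at 3.92, 48.8 and 3.08 CPM and *Epb4.1l1* at 0.688, 6.77 and 1.36 CPM in normoxia under Trim AG, and without Normoxia Trim AG replicate 2 their differences were 1.96 and 2.76. *Mrpl53* was at 1.17, 24.2 and 24.1 CPM there.

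Of the 25 genes of the unfolded protein and integrated stress response 14 responded lower and 0 higher under miR-125b than under Trim AG, among them *Trib3* at -2.14, *Ddit3* at -1.96 and *Asns* at -1.60. The others in this direction were *Casp4* (-2.02), *Chrm2* (-2.01), the muscle cytochrome oxidase subunit *Cox6a2* (-2.36), *Id1* (-0.61) and *Id2* (-0.69). In normoxia *Trib3*, *Ddit3*, *Asns*, *Casp4* and *Cox6a2* were lower under Trim AG than under miR-125b, so their differences lay partly in the normoxia libraries. *Abhd10* (-5.42), whose name is carried by another identifier, was also lower. The call on *Id1* held in 12 of 16 alternatives.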

How the results depend on the processing

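The counts of 1403 genes higher and 1732 lower moved most with the fold asked for, to 644 and 848 at 2-fold and to 3713 and 3920 with no fold. Leaving out 1 library gave 1253 to 1393 higher and 1627 to 1739 lower, and scaling by totals alone gave 1799 and 1449. DESeq2 gave 1273 and 1708, and no filter on low counts 1445 and 1817. With the replicate number as a block they were 1398 and 1733. Same-numbered libraries under miR-125b did not deviate together (r of 0.086, -0.048 and 0.046), so the numbers were not taken as pairs. This was not checked for the isomiR libraries. In hypoxia the mitochondrial share of replicates 1, 2 and 3 was 3.41%, 5.01% and 4.47% under Trim A. It was 3.52%, 5.29% and 4.57% under Trim AG and 3.29%, 5.70% and 4.45% under Trim AGU. Under MC, Plus A and miR-125b it was 3.25% to 3.83%. Beyond the replicate block, the part of this order in the interactions was not tested. Of 542 genes followed, 247 were called, and 536 kept their call or lack of one with DESeq2, 511 with totals alone, 539 with the block and 521 without Normoxia replicate 1. None changed direction under a call.

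Against Plus A the counts of 2 higher and 1 lower became 45 and 25 with DESeq2, 7 and 3 without the filter, 0 and 0 with the replicate block, and 5 higher with no fold, and 0 to 6 and 0 to 4 with 1 library left out. Against Trim A the 75 and 19 became 285 and 63 with DESeq2, 149 and 35 without the filter, 0 and 0 with the block, 32 and 9 at 2-fold, 38 lower with no fold, and 0 to 781 and 0 to 360 with 1 library left out. Against Trim AG the 1088 and 669 became 474 and 164 at 2-fold, 1766 and 1772 with no fold, 1023 and 633 with the block, and 837 to 1513 and 489 to 1032 with 1 library left out. The cause of these shifts was not tested. Calls of genes below 1 CPM rest on few reads.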

Other observations

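The response varied with gene length. When the 15028 genes tested were divided into 5 groups by length, the median log2 fold change was 0.08 among the shortest, with 9.98% called higher and 8.08% lower, and -0.06 among the longest, with 7.89% called higher and 14.8% lower. The part of this gradient in the gene lists was not tested.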
